A study of Mus musculus with 6 samples.

Results

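The genes described are 9 enzymes of heme metabolism, taken by symbol from the expression table of mouse MLL-AF9 leukemia stem cells (LSCs). Of these, 7 belong to heme synthesis, in the order of their steps Alas1, Alad, Uros, Urod, Cpox, Ppox and Fech, and 2 to heme breakdown, Hmox1 and Blvrb. The table held 55367 genes, of which 16746 were tested, and all 9 enzymes were among those tested. Alas2, Hmox2 and Blvra, further enzymes of the same route, are described after the 9.

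RNA-seq was made from 3 WT and 3 Piezo1cko LSC libraries. It asked what loss of the mechanosensitive ion channel gene Piezo1 changes in these cells. The sample titles call them only leukemia cells, and that they are sorted LSCs is taken from the text of the study. Piezo1cko donors were Mx1-cre; Piezo1 fl/fl mice and WT donors were Piezo1 fl/fl littermates without Cre, all aged 8 to 10 weeks and all injected with poly(I:C), which switches on the interferon-inducible Mx1 promoter that drives Cre. In both groups lineage-negative bone marrow was transduced with an MLL-AF9 retrovirus carrying YFP and grown in irradiated recipients, so every library shares the oncogene, the floxed alleles and the poly(I:C), while Cre was present in Piezo1cko donors only and its own effect cannot be told apart from that of the deletion. LSCs were sorted after lysis of red cells, and the study defines them as YFP+ Lin- Sca-1- c-Kit+ cells that are also CD34+ and CD16/32 high, as normal granulocyte-macrophage progenitors are. Mx1-Cre is not restricted to stem cells, and the number of mice behind a library and the transplantation round are not given in the sources used here, so p-values measure the spread between these 6 libraries, which may be technical.

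Libraries held 14112049 to 15483517 reads, recovered by undoing the transform of the deposited log2 values. The deposited values pull counts towards the gene's mean, most strongly for low genes. A log2 fold change on their scale is smaller than in recovered reads, also for abundant genes such as Alas1 (-0.58 against -0.79). Fold changes below are on the deposited scale unless reads are named. Piezo1 stood at 45.9% of its WT mean in normalized reads in Piezo1cko libraries, a log2 fold change of -1.13 in recovered reads and of -0.29 ± 0.04 on the deposited scale (SE, adjusted p = 5.8e-06, limma). Kit, whose product the sort selects for, was present in every library. It had 2522.5 ± 58.4 normalized reads in WT and 3424.9 ± 86.8 in Piezo1cko libraries (SD, n = 3). The log2 fold change of Kit was 0.31 ± 0.03 (SE, adjusted p = 8.42e-09, limma). Hoxa9, a target of MLL-AF9, had 3422.5 ± 105 normalized reads in WT and 3435.7 ± 235 in Piezo1cko libraries.

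Heme is an iron-bearing ring that cytochromes, catalase, peroxidases and hemoglobin need. Its synthesis starts in the mitochondrion, where ALAS1, the rate-limiting enzyme outside red cells, joins glycine and succinyl-CoA. It passes through the cytosol for steps that include those of ALAD, UROS and UROD, and returns to the mitochondrion for CPOX, PPOX and FECH. Heme oxygenases open the ring to biliverdin, carbon monoxide and iron, and biliverdin reductases make bilirubin. In myeloid leukemia cells the route supplies, among others, myeloperoxidase and the respiratory chain.

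Cpox and Alas1 had the largest changes of the 9, and both fell. Cpox dropped to 16.6% of its WT mean in normalized reads and Alas1 to 57.9%. Alad also fell, to 88.9%. Ppox and Fech, the enzymes of the steps after Cpox, rose to 118% each, and Blvrb rose to 164%. Uros, Urod and Hmox1 were not called. The 3 enzymes that rose stand against a background of 31.6% of all tested genes called higher, and the 3 that fell against 31.4% called lower (limma on the deposited values, adjusted p under 0.05). The same 6 enzymes had groups that did not overlap, 3 with Piezo1cko above (33.5% of all genes) and 3 with Piezo1cko below (33.1%). These shares of the members lie near those of all genes, so the number of enzymes called is not a result about the pathway. The sizes of the single changes are given below for each enzyme.

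**Figure D1:**
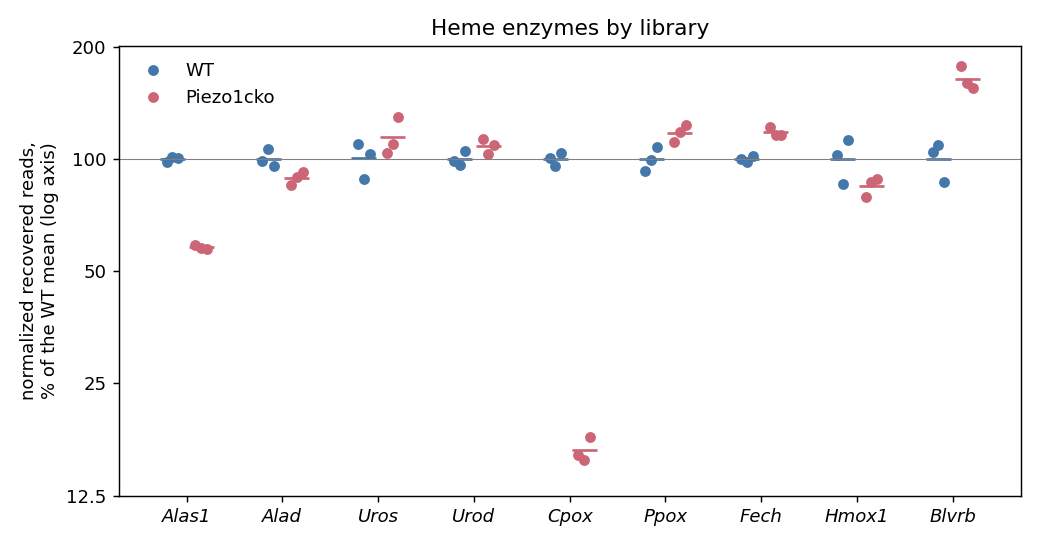
Normalized recovered reads of each enzyme in each library, as a percentage of the WT mean on a log axis, with enzymes in the order of the pathway. Points are libraries (3 WT, 3 Piezo1cko) and short lines are group means. Cpox lies at 16.6% and Alas1 at 57.9% of WT, while Blvrb lies at 164%.

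Cpox encodes coproporphyrinogen oxidase, which turns coproporphyrinogen III into protoporphyrinogen IX in the intermembrane space of mitochondria. The gene lies on the plus strand of chr16:58670292-58717636 (GRCm38). Its recovered reads were 317, 289 and 330 in WT replicates 1 to 3, and 47, 49 and 54 in Piezo1cko replicates 1 to 3. No Piezo1cko library came near the lowest WT library. Scaled to library size, the means were 306 ± 13.0 and 50.6 ± 3.82 normalized reads (SD, n = 3). On the deposited scale the values were 7.71, 7.66 and 7.73 in WT against 6.68, 6.67 and 6.72 in Piezo1cko libraries. The log2 fold change on that scale was -1.01 ± 0.04 (SE, adjusted p = 6.28e-14, limma). On the same scale, as large a change in either direction was met in 0.794% of all genes tested.

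Cpox was the only one of the 9 enzymes past the thresholds for a DEG, which asked for an adjusted p below 0.05 and a fold change beyond 1 on the log2 scale. On the deposited scale, 0.561% of all genes passed as lower DEGs and 0.257% as higher DEGs. The fold change of Cpox on that scale sits just past the limit. Without WT replicate 3, without Piezo1cko replicate 2, under quantile normalization or with library medians set equal, it lay between -1.0 and -0.99 and no enzyme passed as a DEG. In the recovered reads, which carry no such pull, the log2 fold change of Cpox was -2.59 ± 0.13 (SE, adjusted p = 2.92e-10, limma-voom), and the fitted level was 13.7 to 20.3% of WT (95% interval). By the same thresholds in reads 1 enzyme was a lower DEG, beside 12.2% of all genes, and none was a higher DEG, beside 12.7%.

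Of the exon length of Cpox, 3.06% is shared with Gpr15 on the opposite strand, and whether counting used strand is not given in the sources used here. Gpr15 itself had 7.84 normalized reads in WT and 4.37 in Piezo1cko libraries. Around Cpox, chosen after its value was seen, 5 other genes within 500 kb were tested. None of them rose and 2 fell, Cldnd1 (-0.47) and St3gal6 (-0.12), beside 31.6% and 31.4% of all genes tested. The 5 values ran from -0.47 to -0.01.

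Promoter sequences from RefSeq (GRCm38.p6) were at hand for 7 of the 9 enzymes. The windows of Cpox, the enzyme that fell most, and of Blvrb, the one that rose most, are shown 5′ to 3′ for the 250 bases before the RefSeq start, both on the plus strand. No base of either lies in an exon annotated by GENCODE. Capitals mark the HIF element, searched as ACGTG or GCGTG on both strands.
Cpox, chr16:58669958-58670207: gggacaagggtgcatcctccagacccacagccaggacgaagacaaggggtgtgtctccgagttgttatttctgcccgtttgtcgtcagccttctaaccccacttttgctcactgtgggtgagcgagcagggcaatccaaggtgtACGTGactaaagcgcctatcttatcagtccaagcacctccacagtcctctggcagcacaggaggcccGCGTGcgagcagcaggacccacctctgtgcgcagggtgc
Blvrb, chr7:27447728-27447977: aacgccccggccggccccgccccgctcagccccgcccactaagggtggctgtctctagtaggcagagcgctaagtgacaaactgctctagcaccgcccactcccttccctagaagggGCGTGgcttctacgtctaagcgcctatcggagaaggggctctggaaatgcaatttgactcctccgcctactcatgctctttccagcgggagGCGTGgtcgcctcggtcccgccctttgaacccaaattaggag

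Both windows held the HIF letters at 2 places, 106 and 39 bases before the start in Cpox and 133 and 42 bases before it in Blvrb, all on the plus strand. The antioxidant response element, searched as TGANNNNGC, occurred once in each, 132 bases before the Cpox start on the plus strand and 69 bases before the Blvrb start on the minus strand. Across 32851 windows of the same length, 38.6% held the HIF letters and 35.2% those of the antioxidant response element, so either match is common. Over all 11 windows of the enzymes, HIF letters were found in at least 1 window of 7 enzymes and the antioxidant letters in 3. These counts are per enzyme, some with 2 windows, while the shares of all windows are per window, so they are unlike measures. The E-box CACGTG, which contains the HIF letters, was found in 3 enzymes (Alad, Uros and Urod) and in 6.02% of all windows, and the C/EBP-ATF letters TGATGNAA in none, beside 3.45% of all windows. The 7 enzymes with a window include ones that fell, rose and were not called, and all of them held HIF letters. A match of letters describes the sequence and does not show that a factor binds there.

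Alas1, the first enzyme of the route, was by far the most abundant of the 9. It lies on the minus strand of chr9:106233455-106248654. Its normalized reads were 10347.3, 10634.8 and 10591.4 in WT replicates 1 to 3, against 6194.8, 6075.6 and 6018.7 in Piezo1cko replicates 1 to 3. The groups were far apart, and the spread within each was small beside the gap between them. The log2 fold change was -0.58 ± 0.02 on the deposited scale (SE, adjusted p = 2.77e-14, limma) and -0.79 ± 0.03 in recovered reads (SE, adjusted p = 8.05e-13, limma-voom). On the deposited scale, as large a change was met in 3.2% of all genes. In recovered reads, 12.2% of all genes were lower DEGs and 12.7% higher DEGs, each with a larger change than that of Alas1. The fall of Alas1 is called with a small error but does not pass the DEG limit on either scale. With 4930500F10Rik, on the opposite strand, it shares 7.53% of its exon length. Of 19 other genes tested within 500 kb, 7 rose and 6 fell, beside 31.6% and 31.4% of all genes tested. Their values ran from -0.44 to 0.35.

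ALAD condenses the product of ALAS1 to porphobilinogen. Alad (chr4:62509169-62519918) had 1015.9, 1091.9 and 983 normalized reads in WT and 876, 921 and 950 in Piezo1cko libraries. All 3 Piezo1cko libraries were below all 3 WT libraries, with the highest and the lowest close to each other. The log2 fold change was -0.11 ± 0.03 (SE, adjusted p = 0.00988, limma). This call rested on WT replicate 2, the highest library, without which the change was -0.08 (adjusted p = 0.0676, limma).

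UROS closes the linear tetrapyrrole into the ring, and UROD trims its side chains to give coproporphyrinogen, the substrate of CPOX. Uros had 139, 112 and 131 normalized reads in WT against 132, 139 and 164 in Piezo1cko libraries, and Urod 586, 573 and 624 against 671, 614 and 648. The groups overlapped for both genes. The log2 fold changes were 0.07 ± 0.04 for Uros (adjusted p = 0.164) and 0.07 ± 0.04 for Urod (SE, adjusted p = 0.0904, limma). In recovered reads the fitted levels were 94.9 to 136% of WT for Uros and 99.4 to 118% for Urod (95% intervals), so these data leave room for a modest rise and for little change. Urod was called higher when library medians were set equal (0.09, adjusted p = 0.0302) or under quantile normalization (0.09, adjusted p = 0.0336, limma).

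PPOX oxidizes the product of CPOX to protoporphyrin IX, and FECH, ferrochelatase, sets the iron into it. Ppox (chr1:171275990-171281186) had 729, 779 and 847 normalized reads in WT and 873, 926 and 969 in Piezo1cko libraries. Fech had 2134.7, 2096.1 and 2166.6 in WT and 2591.8, 2475.9 and 2467.5 in Piezo1cko libraries. Every Piezo1cko library was above every WT library for both genes, narrowly so for Ppox. The log2 fold changes were 0.15 ± 0.04 for Ppox (adjusted p = 0.00226) and 0.17 ± 0.03 for Fech (SE, adjusted p = 4e-05, limma). Ppox shares 17.5% of its exon length with B4galt3 on the opposite strand, so reads of the pair may not be told apart there.

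Ratios between steps of the route describe how far the enzymes shifted against each other. Per exon length, Ppox stood at 3.79 ± 0.255 times Cpox in WT libraries and at 27.0 ± 1.44 times Cpox in Piezo1cko libraries (SD, n = 3). The ratio of Fech to Ppox was 0.890 ± 0.0613 in WT and 0.891 ± 0.0704 in Piezo1cko libraries. The ratio of Alas1, at the start of the route, to Fech, at its end, went from 11.1 ± 0.270 to 5.44 ± 0.0748.

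Hmox1 encodes the inducible heme oxygenase, a known target of NRF2 and of the heme-sensing repressor BACH1. It had 57, 46 and 63 recovered reads in WT and 41, 48 and 47 in Piezo1cko libraries. The groups overlapped in these counts, which are the lowest of the 9 in WT libraries. The log2 fold change was -0.05 ± 0.04 on the deposited scale (SE, adjusted p = 0.25, limma) and -0.23 in recovered reads (adjusted p = 0.273, limma-voom). The fitted level lay between 65.3 and 111% of WT (95% interval), so a moderate fall and a slight rise could not be told apart at this depth.

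Blvrb encodes biliverdin reductase B, which reduces chiefly biliverdin isomers other than the main product of heme oxygenase, and also flavins. The gene lies at chr7:27447978-27466144. It had 97, 97 and 81 recovered reads in WT and 153, 148 and 137 in Piezo1cko libraries, so the groups were well apart. Normalized reads were 90.0 ± 10.6 and 148 ± 10.7 (SD, n = 3). The log2 fold change was 0.25 ± 0.04 on the deposited scale (SE, adjusted p = 3.47e-05, limma) and 0.72 in recovered reads (adjusted p = 0.000157, limma-voom), with a fitted level of 136 to 198% of WT (95% interval).

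**Figure D2:**
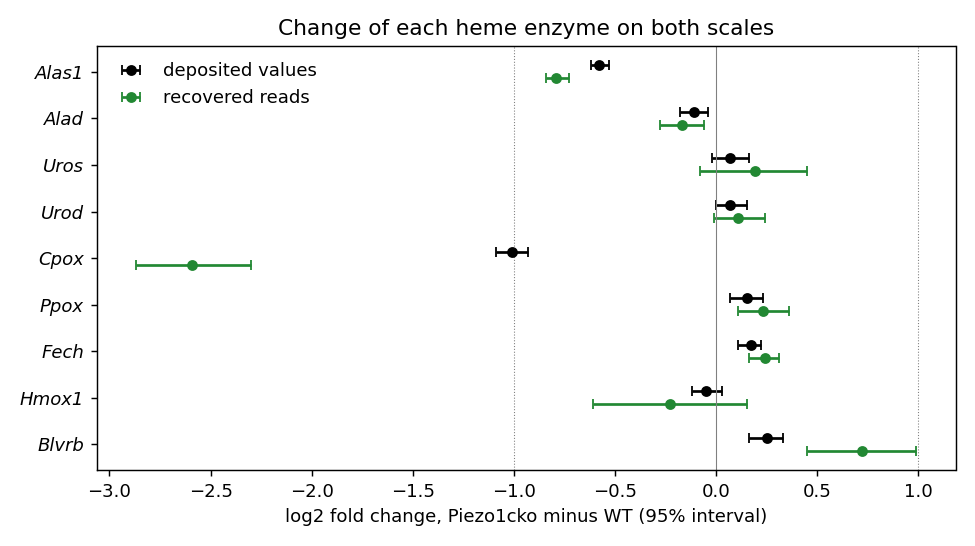
Log2 fold change, Piezo1cko minus WT, of each enzyme in pathway order, with 95% intervals, on the deposited scale (black, limma) and in recovered reads (green, limma-voom). Dotted lines mark the DEG limit of 1 in either direction. Cpox lies at -1.01 and -2.59 and Alas1 at -0.58 and -0.79, while the intervals of Uros, Urod and Hmox1 reach 0 or pass it.

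Set side by side per kb of exon and scaled to the library total (RPKM), the levels of the 9 enzymes spanned a wide range. The length joins all annotated exons of a gene, and the order of the genes depends on it. In WT libraries Fech stood below Alad per kb, but above it without scaling by length (143 against 69.1 CPM). In WT libraries the order was Alas1 (114), Alad (36.9), Urod (15.4), Ppox (11.7), Fech (10.3), Cpox (3.08), Uros (2.39), Blvrb (2.17) and Hmox1 (2.07). The ranges of Uros and Blvrb, and those of Blvrb and Hmox1, overlapped, and all other neighbours were apart. In Piezo1cko libraries the first 5 kept their places, with Alas1 at 67.1, Alad at 33.3, Urod at 16.9, Ppox at 13.9 and Fech at 12.3. Blvrb (3.61), Uros (2.75) and Hmox1 (1.78) followed, and Cpox (0.516) came last, with no overlap between neighbours. Cpox thus went from the sixth to the ninth place. Alas1 made up 57.6 to 57.7% of the summed level of the 9 per kb in WT and 43.2 to 44.8% in Piezo1cko libraries. Reads of all 9 together, scaled to the library total as CPM, were 1030.8 to 1060.6 in WT and 774 to 786 in Piezo1cko libraries.

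**Figure D3:**
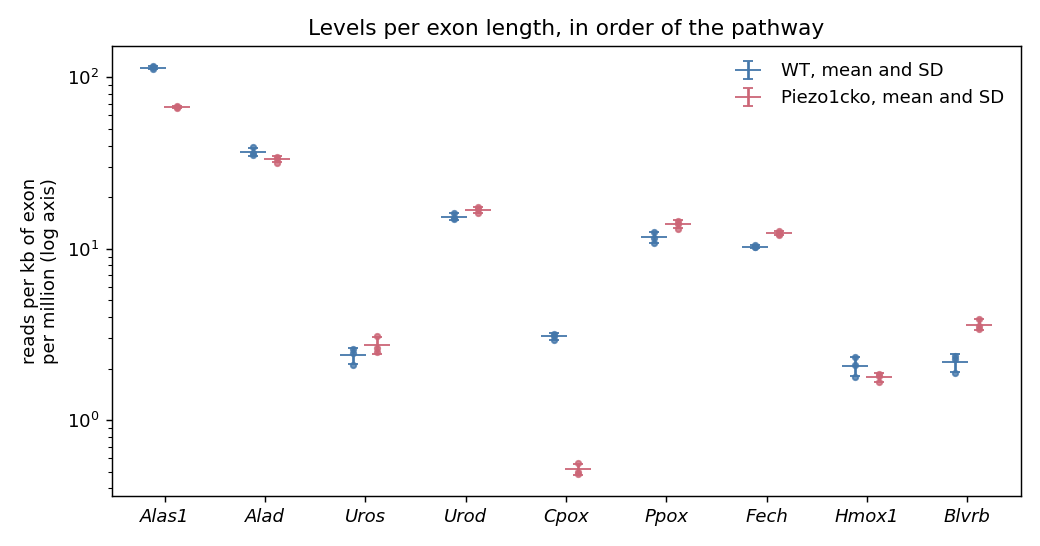
Level of each enzyme in RPKM (reads per kb of exon, scaled to the library total), on a log axis, in pathway order. Points are libraries, horizontal marks are means and bars are SD (n = 3 per group). Cpox moves from 3.08 to 0.516 and from above Uros, Hmox1 and Blvrb to below all of them.

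Of the further enzymes of the route, Blvra rose, and Alas2 and Hmox2 were not called. Alas2, the red cell form of the first enzyme, was near the floor in both groups (5.55 ± 2.96 and 8.12 ± 2.19 normalized reads), and its fold change of 0.02 was not called. Hmox2, the constitutive heme oxygenase, differed by -0.01 (adjusted p = 0.758, limma). Blvra, the main biliverdin reductase, rose from 1391.9 ± 70.2 to 1987.4 ± 84.1 normalized reads (log2 fold change 0.35 ± 0.03 SE, adjusted p = 3.05e-08, limma). Both biliverdin reductases were therefore higher, and neither heme oxygenase was called.

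Of 12 proteins that carry substrates for heme synthesis or adjust its enzymes, 4 rose and 3 fell, with a median log2 fold change of 0.03 beside 0.00 over all genes tested. The counts of this list and of those below stand beside 31.6% of all genes tested called higher and 31.4% called lower. Pgrmc1, a heme-binding partner of ferrochelatase, rose by 0.51, Slc25a37, the mitochondrial iron importer mitoferrin, by 0.26 and Abcb10 by 0.21. Fam210b fell by 0.16. Clpx, the unfoldase that activates and turns over ALAS, also fell. The amino acid carrier Slc25a38 and the porphyrin carriers Abcb6 and Tmem14c were not called.

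Of 7 genes of heme transport, 4 rose and 1 fell (median 0.17). Cd163, a receptor for hemoglobin bound to haptoglobin, rose by 0.52 on the deposited scale and by 2.39 on the log2 scale of recovered reads, with 20.9 ± 4.44 normalized reads in WT and 111 ± 9.87 in Piezo1cko libraries (SD, n = 3). Lrp1, a receptor for hemopexin, rose by 0.28, Abcg2, which exports porphyrins, by 0.23, and Slc46a1 by 0.17. Flvcr1, known as a heme exporter, fell by 0.24. Cd163 also marks macrophages, whose listed markers are given with the other cell types below.

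Among regulators of heme enzymes, 2 of 11 tested rose and 7 fell (median -0.11). Hif1a, the oxygen-sensing factor whose letters were searched above, fell by 0.79 on the deposited scale, and its normalized reads were at 40.5% of the WT mean. Nfe2l2, which encodes NRF2, fell by 0.56 on the deposited scale, with normalized reads at 55.5%. Ncor1, which with the heme-binding receptor NR1D1 forms a repressor, fell by 0.26 and Keap1, the inhibitor of NRF2, fell by 0.16. The small MAF genes Maff (0.38) and Mafk (0.27) rose. Bach1, the heme-sensing repressor, differed by -0.09 (adjusted p = 0.0464, limma) with groups that overlapped, and was not called in recovered reads (adjusted p = 0.0644, limma-voom). Eif2ak1, the heme-regulated eIF2 alpha kinase, was not called (0.03). Ppargc1a, an activator of Alas1 in liver, was under the filter on low values.

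Genes driven by NRF2 or repressed by BACH1 moved in both directions: 5 of 14 tested rose and 8 fell (median -0.09), and Me1 was listed at 0 in every library. On the deposited scale the largest changes were in Slc7a11, the cystine carrier (-2.21), Gclm (-0.72), Txnrd1 (-0.52) and Srxn1 (-0.34), all of which fell. In recovered reads the log2 fold changes were -4.66 for Slc7a11, -1.69 for Srxn1, -1.19 for Gclm and -0.81 for Txnrd1. On that scale Osgin1 (1.84, from 4.56 to 17.5 normalized reads) and Nqo1 (1.71, from 10.1 to 31.4) rose, from few reads in WT libraries. Hmox1, which shares these regulators, had a log2 fold change of -0.05. Of 15 tested genes for proteins that carry or bind heme, 2 rose and 8 fell (median -0.10), and Gucy1b1 was listed at 0. Epx, eosinophil peroxidase, fell by 1.38, Mpo, myeloperoxidase, by 0.65, Cybb, the heme subunit of the phagocyte oxidase, by 0.40 and the heme-binding gene Hebp2 by 0.35. Summed levels of this list were 21012.9 to 22284.3 CPM in WT and 12623.5 to 13173.8 in Piezo1cko libraries, most of them from Mpo.

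**Figure D4:**
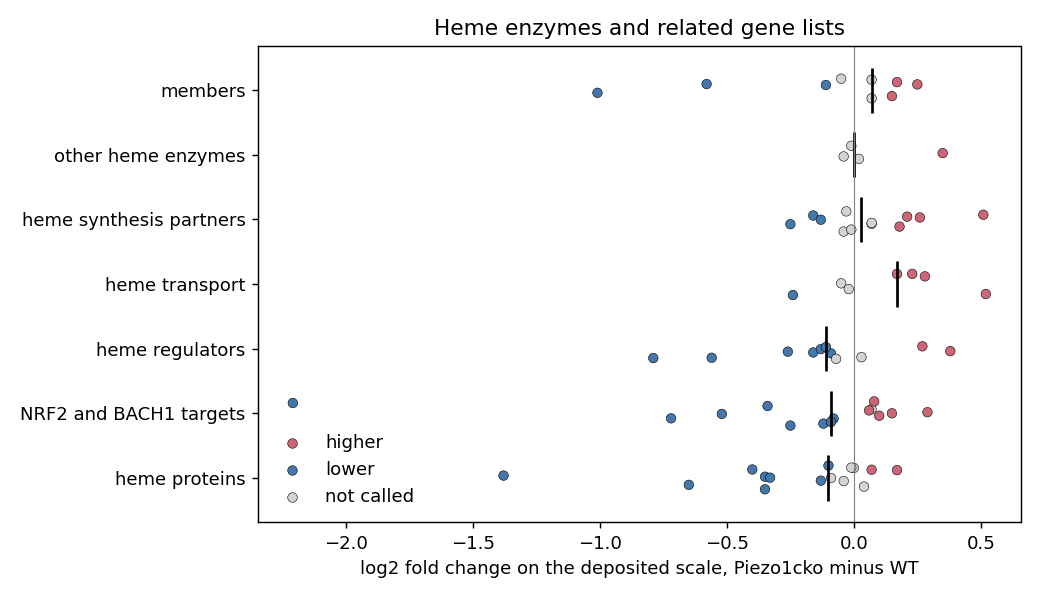
Log2 fold change on the deposited scale, Piezo1cko minus WT, of each tested gene in the 9 enzymes (members) and 6 related lists. Points are genes, coloured by call, placed with random vertical spread, and black lines are list medians. Medians run from -0.11 in the regulators to 0.17 in heme transport, and Slc7a11 (-2.21), Epx (-1.38) and Cpox (-1.01) lie farthest to the left.

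Red cell precursors make heme at a high rate. The sort that the study describes takes CD34+ and CD16/32 high cells. Bulk libraries cannot tell fewer cells of a type from less RNA per cell. In these libraries Cd34 had 3721.0 ± 60.1 and 5796.1 ± 162 normalized reads in WT and Piezo1cko libraries, and Fcgr3, which encodes a receptor of the CD16/32 stain, 5405.2 ± 113 and 5323.4 ± 168 (SD, n = 3). Of 15 red cell precursor markers, 9 were tested, of which none rose and 6 fell, beside 31.6% and 31.4% of all genes tested. Their summed levels were 27.7 to 33.5 CPM in WT and 10.2 to 11.8 in Piezo1cko libraries. On the deposited scale the largest changes were in Car1 (94.4 ± 7.77 to 8.12 ± 2.19 normalized reads), Ermap (55.6 ± 0.865 to 0.989 ± 0.975), Klf1 (79.4 ± 4.50 to 20.5 ± 4.71) and Car2 (96.0 ± 17.6 to 35.0 ± 1.41). Slc4a1 (12.4 ± 2.87 to 0 normalized reads) and Epor (33.8 ± 6.91 to 9.45 ± 3.28) fell by a larger factor than Car2. The defining genes of maturing red cells were near 0 in both groups: Hba-a1 had 10.2 ± 5.33 and 6.40 ± 4.67 normalized reads, and Hbb-bs 2.60 ± 2.79 and 2.38 ± 3.27. Alas2 and Gata1 were not called. The red cell precursor markers that fell moved with Cpox and Alas1, and their part in those falls was not tested.

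**Figure D5:**
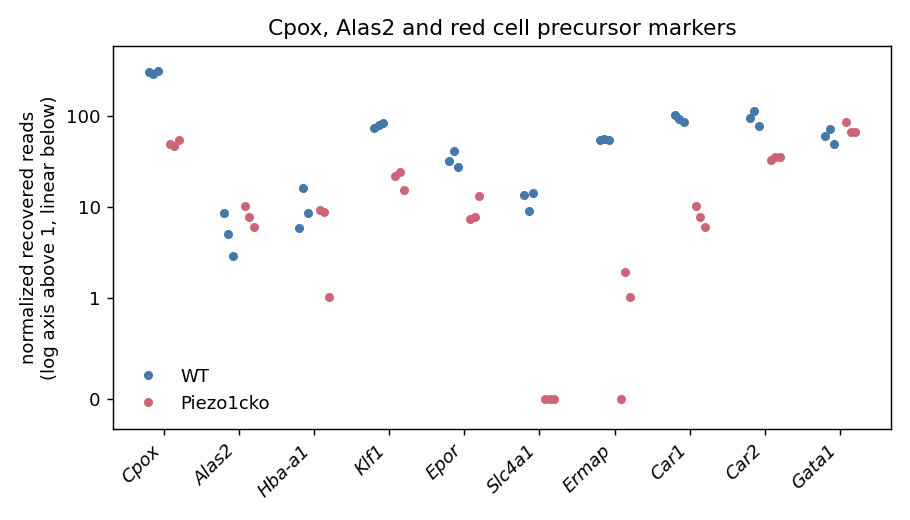
Normalized recovered reads of Cpox, Alas2 and the red cell precursor markers with over 10 reads in the sum of both group means, on an axis that is logarithmic above 1 read and linear below. Points are libraries (3 per group). Cpox, Klf1, Epor, Slc4a1, Ermap, Car1 and Car2 are lower in every Piezo1cko library than in any WT library, while Alas2, Hba-a1 and Gata1 overlap.

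Other cell type lists moved too, beside 31.6% of all genes tested called higher and 31.4% called lower. Of the mast cell and basophil markers, 8 of 9 tested rose, led by Cpa3 (2.19) and Hdc (1.52), and their sum was 335 to 353 CPM in WT and 1079.3 to 1088.2 CPM in Piezo1cko libraries. Of the neutrophil markers, 6 of 8 fell, led by Ngp (-1.90), and Mmp8 rose by 1.82 (42.5 to 633 normalized reads), with sums of 169 to 170 and 61.9 to 64.8, and Retnlg was listed at 0. Of the macrophage markers, 5 of 9 rose and none fell, with sums of 151 to 165 and 166 to 168, and C1qa and Cd5l were listed at 0. Those that rose were Cd163 and, near the floor, C1qb, C1qc, Mrc1 and Spic. The means of these near the floor were 0 to 1.01 normalized reads in WT and 10.8 to 21.8 in Piezo1cko libraries. Csf1r (1372.9 to 1320.4 normalized reads), Adgre1 (611 to 626), Vcam1 (341 to 333) and Axl (3.88 to 8.46) were not called. Of the B cell markers, 3 of 4 rose, chiefly Ighm (0.66), with sums of 818 to 846 and 1519.6 to 1542.3. T cell markers summed to 0.517 to 1.04 and 1.45 to 1.77 CPM, with 2 of 3 higher, 1 lower and Cd8a listed at 0. Of the LSC markers, 4 of 8 rose, led by Flt3 (0.87), and Meis1 fell (-0.13), with sums of 1160.2 to 1167.4 and 1440.4 to 1463.2. The part of these shifts in the changes of the 9 enzymes was not tested.

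Over the 6 libraries, the genes whose deposited values ran most closely with Alas1, out of 10927 genes whose mean reached 5, were E2f2 (Pearson r = 0.99988), Pfkp (0.99976) and Slc3a2 (0.99970). For Hmox1 they were Atp5g2 (0.978), Tmem53 (0.969) and Med12l (0.968). E2f2, Pfkp and Slc3a2 had log2 fold changes of -1.33, -0.58 and -1.12 between the groups. These values describe likeness over 6 libraries in 2 groups whose points share library and depth. The Alas1 groups differed by -0.58 with an SD of 0.02 in each. Any gene that fell with little spread within the groups therefore reaches an r near 1, and the ranking does not show shared regulation.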

How the data were processed

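RNA-seq of 3 WT and 3 Piezo1cko LSC libraries was used. The authors amplified RNA with an oligo-dT method derived from Smart-seq2. Per the submitters' processing notes, they used fastp (version 0.20.1), HISAT2 (version 2.2.1), featureCounts (version 2.0.1) and DESeq2 (version 1.28.1), with the build GRCm38. The deposited table holds log2 values, 1 column per library, of the form of a regularized log. Such a log draws counts towards the gene's mean, low ones most. The sources used here do not name that transform. Of 55367 genes, 28965 are listed at 0 in all libraries and 26402 have values.

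Genes with a mean of at least 1 (16746) entered a linear model in limma (version 3.58.1, in R 4.3.3), moderated with a mean-variance trend and with group as its only term. The Benjamini-Hochberg adjustment ran over all of them. Errors of fold changes are SE, and those of levels are SD. The transform was undone by fitting size factors and shrinkage so that values became whole reads: 95% of values of genes with a mean of 1 to 1000 reads lay within 0.1 of a whole number, and 22.7% did when the shrinkage was set 10% off. Genes with a mean under 1 read did not come out whole (26.4%). Genes above 1000 reads, Alas1 and Fech among the enzymes, were outside this check. The values of Alas1 and Fech lay up to 0.36 and 0.45 from a whole read. The recovered reads were fitted with limma-voom (17352 genes with at least 10 reads in total). Both steps were tested on simulated data. Normalized reads are recovered reads divided by the size factor. Levels per kb used exon lengths of GENCODE M21, with all annotated exons of a gene joined. An exact two-sided permutation test cannot go below 0.1 here, so none was used.

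The enzymes and all lists were chosen with earlier results of these data known. Named were the 9 enzymes, called genes of the other heme enzymes, partners, transport and regulators (at most 6 per list by size of change), at most 4 called genes of each other list, Piezo1, and for Alas1 and Hmox1 the 3 most alike genes. Some listed genes count in the totals but are not reported here by name. Genes named beyond these (Kit, Hoxa9, uncalled or further list genes, neighbours) were added after their values were seen. Alternatives were other filters and scalings, a replicate block, eBayes without a trend, recovered reads and leaving out each library.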

Additional observations from a re-analysis of the deposited data

How the results depend on the processing

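Over 15 alternative settings, 169 values were recomputed, of which 161 kept their direction and side of the threshold, or stayed within 1.5 times for a count, and none reversed. Alad was not called without WT replicate 2 (-0.08, adjusted p = 0.0676), and Urod was called with library medians set equal (0.09, adjusted p = 0.0302) and under quantile normalization (0.09, adjusted p = 0.0336, limma). The number of enzymes past the DEG thresholds was 1 and became 0 with library medians set equal or under quantile normalization, 0 without Piezo1cko replicate 2 or WT replicate 3, and 6 by adjusted p alone, since Cpox lies at the fold limit on the deposited scale. Leaving out 1 library at a time gave -0.59 to -0.57 for Alas1, -0.13 to -0.08 for Alad, 0.03 to 0.10 for Uros, 0.05 to 0.09 for Urod, -1.03 to -1.0 for Cpox, 0.12 to 0.19 for Ppox, 0.15 to 0.17 for Fech, -0.07 to -0.03 for Hmox1 and 0.22 to 0.27 for Blvrb, with 2 to 3 enzymes lower, 3 higher and 0 to 1 DEGs. No scaling moved the median of all genes by more than 0.023.

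With the replicate number as a block, 11055 of 16746 genes were called and 10556 without it, and no call of an enzyme changed (Alas1 -0.58, Cpox -1.01). Deviations from the group means correlated by 0.20, 0.16 and 0.07 between libraries with the same number, and by at most 0.03 between other numbers. Each library ran best with its own number, a hint from the data and not from the design. Depth limits Hmox1, whose 41 to 63 reads per library leave a wide interval.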
